A study of Homo sapiens with 24 samples.

Results

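The 9 genes described here regulate or mark basal and stem-like epithelial cells, and were followed across all 24 RNA-seq libraries of the series. They were taken by symbol from the gene-level tables, so that 9 of 60448 listed symbols, and 9 of the 19245 symbols annotated as protein-coding, form the set. They comprise 6 transcription factor genes, TP63, SOX2, SOX4, SOX9, KLF4 and KLF5, and 3 surface protein genes, CD44, PSCA and PROM1. All libraries came from BPH-1 or RWPE-1, immortalized human prostate epithelial lines carrying viral oncogenes (SV40 large T antigen in BPH-1, human papillomavirus genes in RWPE-1). BPH-1 was grown with serum, in DMEM by the labels and in RPMI by the study's methods, and RWPE-1 in keratinocyte serum-free medium with bovine pituitary extract and EGF. Cells were transduced with the lentiviral vector FU-ILYW holding either no insert (vector control) or wild-type C-Raf, a kinase of the Ras to ERK pathway, and carried a luciferase reporter. The C-Raf parental cells were injected into the heart of immunodeficient NSG mice, and macroscopic tumors were excised and cultured for about a week to give metastasis-derived lines. BPH-1 had 3 vector control, 3 C-Raf parental and 6 metastasis-derived libraries. RWPE-1 had 1 vector control, 4 C-Raf parental and 7 metastasis-derived libraries. No library came from vector control cells passed through a mouse, so passage and selection cannot be told apart in the metastasis-derived lines. Nothing in the descriptions says that replicates were separate transductions or cultures, nor whether LN1A and LN1B, or BONE R075 and THYMUS R075, came from 1 animal. The p-values and n therefore refer to these libraries, not to animals.

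Basal cells line the prostatic duct beneath the secretory luminal cells, and p63, the product of TP63, is the factor that defines and maintains them. SOX factors bind DNA through an HMG box and hold progenitor states in many epithelia, whereas KLF4 and KLF5 are zinc finger factors that bind GC-rich and CACCC elements and steer differentiation and growth of stratified epithelia. CD44 is the hyaluronan receptor, PSCA is a small GPI-anchored protein of the LY6 family, and PROM1 (CD133) is a membrane protein used to enrich for stem-like cells.

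Promoter sequences are given for the 3 transcription factor genes higher in metastasis-derived BPH-1 cells (adjusted p below 0.05) in the comparison described below. Those results depended on which libraries entered. They are the 250 bases before each annotated start in RefSeq (GRCh38.p14), 5′ to 3′ on the gene's strand, with GC boxes in capitals (GGGCGG, or CCGCCC on the other strand), the element bound by Sp and KLF proteins. The SOX2 window is chr3:181711675-181711924 on the plus strand, KLF4 is chr9:107489770-107490019 on the minus strand, and the KLF5 windows are chr13:73054726-73054975 and chr13:73058755-73059004 on the plus strand.
SOX2: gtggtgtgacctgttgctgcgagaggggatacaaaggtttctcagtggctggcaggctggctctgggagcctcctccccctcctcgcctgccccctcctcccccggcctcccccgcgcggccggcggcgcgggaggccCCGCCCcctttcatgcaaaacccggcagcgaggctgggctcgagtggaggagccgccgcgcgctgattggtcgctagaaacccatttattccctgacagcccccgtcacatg
KLF4: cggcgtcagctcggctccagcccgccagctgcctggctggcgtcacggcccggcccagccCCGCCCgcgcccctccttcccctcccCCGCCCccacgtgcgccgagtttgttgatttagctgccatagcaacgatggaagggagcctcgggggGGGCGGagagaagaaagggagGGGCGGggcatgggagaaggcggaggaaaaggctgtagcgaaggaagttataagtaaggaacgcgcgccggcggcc
KLF5 first start: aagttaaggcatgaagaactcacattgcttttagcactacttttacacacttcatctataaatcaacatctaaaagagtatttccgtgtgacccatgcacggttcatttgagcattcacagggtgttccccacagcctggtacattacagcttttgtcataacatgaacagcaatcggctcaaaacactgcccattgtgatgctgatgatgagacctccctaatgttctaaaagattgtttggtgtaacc
KLF5 second start: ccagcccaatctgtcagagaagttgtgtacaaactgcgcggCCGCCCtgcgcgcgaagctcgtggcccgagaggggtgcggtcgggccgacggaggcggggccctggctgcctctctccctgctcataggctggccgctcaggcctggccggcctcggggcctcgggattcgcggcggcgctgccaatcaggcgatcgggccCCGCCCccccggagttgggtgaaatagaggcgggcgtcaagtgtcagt

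The KLF4 window held 4 GC boxes, the second KLF5 window 2, the SOX2 window 1 and the first KLF5 window 0, against 42.6% of all 35116 RefSeq windows of this length with at least 1. A CACCC element (either strand) was present in both KLF5 windows, 1 in the first and 2 in the second, and in 54.7% of all windows. An AP-1 element (TGANTCA, either strand) was found in 0 of these 4 windows and in 6.57% of all windows, and a SOX element (AACAAT, either strand) was found once, in the first KLF5 window, against 8.98% of all windows. Matches of different motifs were counted separately even where they overlap, and a match describes the letters only. Of the 9 genes, 7 had entries in this table, and SOX9 and PSCA had none.

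The libraries other than 3 of low depth held 20576111 to 42031834 protein-coding counts each. The BPH-1 metastasis-derived libraries titled BONE R071, BONE R074 and BONE R075 held 464967, 132481 and 111181, with 93.29% to 97.55% of their counts on the small RNA gene RN7SL1, and were kept out of the comparisons. The remaining 3 of that group also differed from their controls, with 13.1%, 30.3% and 4.60% of counts on RN7SL1 in BONE R069, BONE R072 and THYMUS R075 and 70.0%, 38.9% and 83.8% on protein-coding genes, against at most 0.0093% and at least 97.4% in the BPH-1 libraries before metastasis. This difference runs along the whole BPH-1 metastasis comparison, and its part in the members' levels was not tested. BONE R072 had a TMM scaling factor of 0.592. The titles and treatment labels of BONE R075 and THYMUS R075 name different tumor sites, so no site is compared here. All BPH-1 metastasis-derived libraries sit in another deposited table than their controls, and table and stage cannot be told apart for them. The labelled cell type was checked on markers. The basal keratin genes KRT5 and KRT14 were at 698 to 6843 and 158 to 6583 CPM, the epithelial adhesion gene EPCAM was at 21.5 to 214 CPM, and KLK3 was at 0 in all 21 libraries. In bulk RNA, fewer cells of a type and less RNA per cell cannot be told apart.

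Expression is given as CPM, counts relative to the protein-coding total of the library and scaled by TMM over the 21 libraries, and changes as log2 fold change ± SE from edgeR's quasi-likelihood test, with p-values adjusted by Benjamini and Hochberg over all genes tested. A call means an adjusted p below 0.05.

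**Figure D1:**
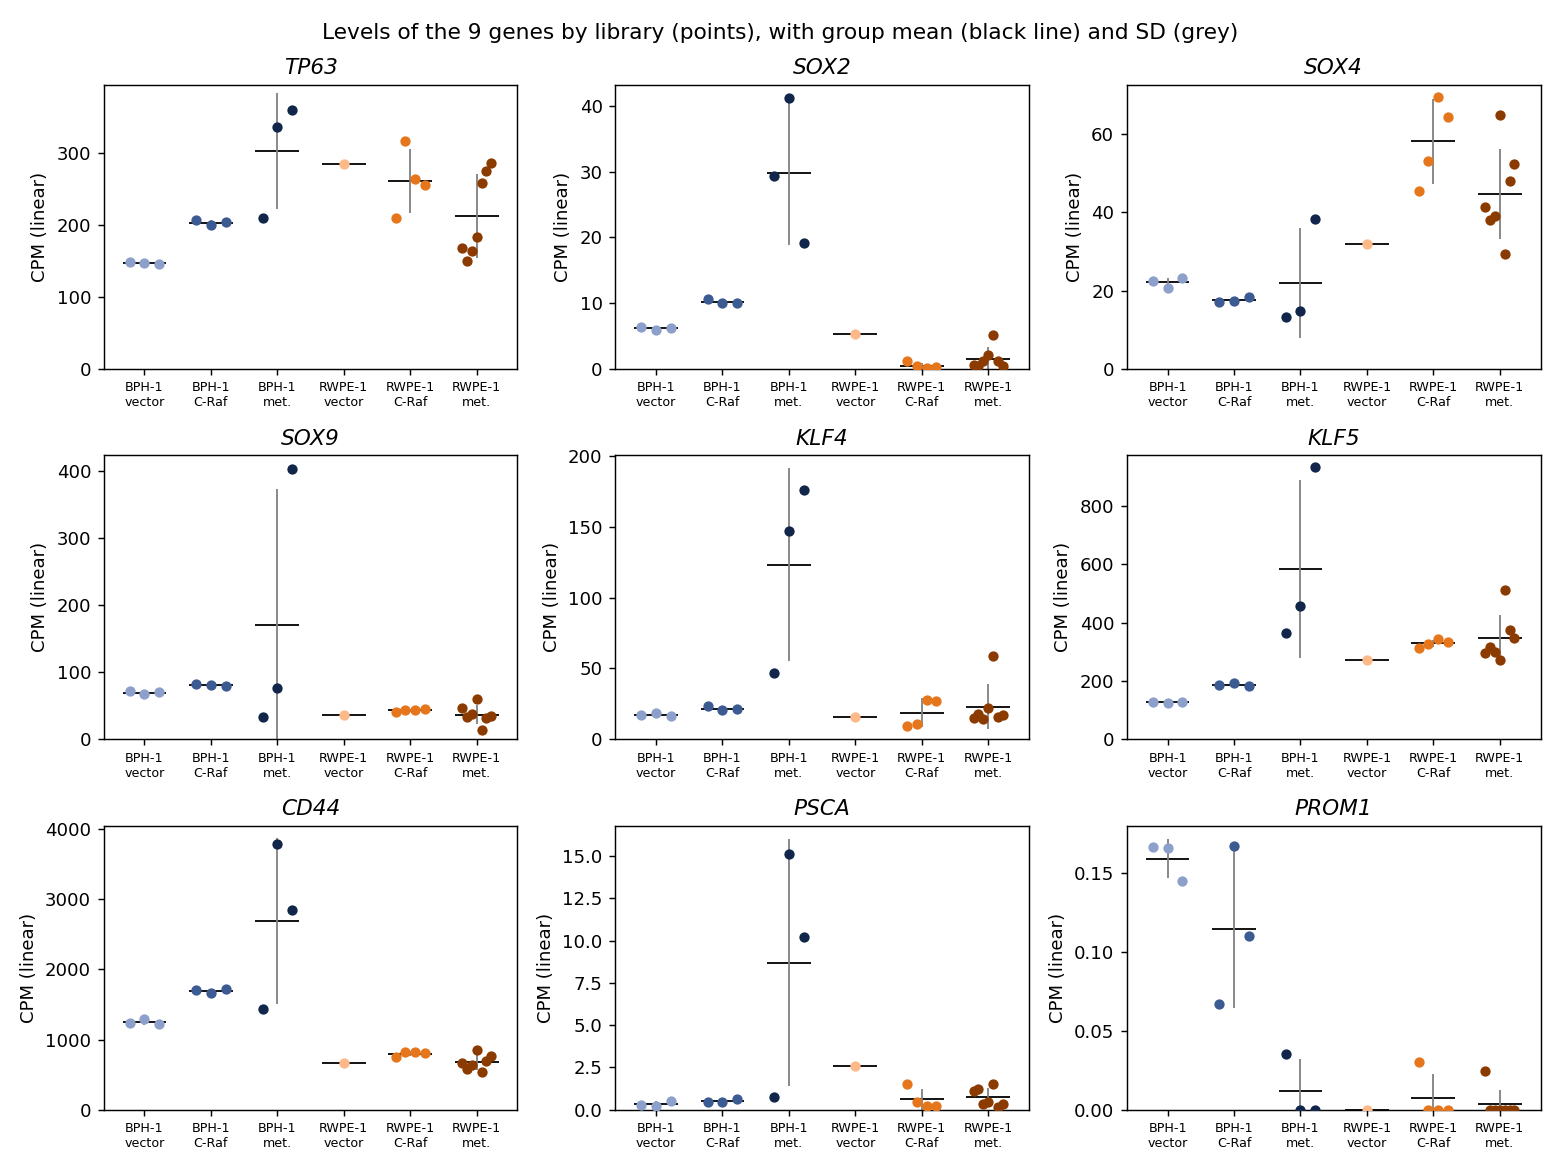
CPM (linear axis from 0) of each of the 9 genes in the 21 libraries other than the 3 of low depth, by line and stage (met., metastasis-derived). Points are libraries, black lines group means and grey bars SD, with 1 library and no SD for the RWPE-1 vector control. KLF4, KLF5, SOX2 and PSCA are highest on average in the BPH-1 metastasis-derived group, where the points also spread most widely.

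TP63 (chr3:189631416-189897279, plus strand, GRCh38) rose with C-Raf in BPH-1 and did not pass the test in any metastasis comparison within a line. In BPH-1 it was at 149, 148 and 146 CPM in the vector control, at 207, 200 and 204 CPM in C-Raf parental cells, and at 210, 337 and 361 CPM in the metastasis-derived libraries BONE R069, BONE R072 and THYMUS R075. The 3 BPH-1 groups did not overlap, although BONE R069 lay just above the highest parental library. The C-Raf effect was 0.47 ± 0.03 (adjusted p = 1.57e-14) and the further difference in metastasis-derived cells was 0.64 ± 0.25 (adjusted p = 0.0884). In RWPE-1, TP63 was at 285 CPM in the vector control and at 209, 317, 264 and 256 CPM in C-Raf parental cells, and the 7 metastasis-derived lines ran from 150 to 287 CPM with a median of 184. Parental and metastasis-derived RWPE-1 libraries overlapped, and the difference of -0.30 ± 0.20 did not pass (adjusted p = 0.748). The counts are summed over the isoforms of the gene, so the full-length and the N-terminally truncated p63 of basal cells are not separated.

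SOX2 (chr3:181711924-181714436, plus strand), a factor of pluripotent and basal progenitor cells, rose at both steps in BPH-1 and was the member with the largest difference between the C-Raf parental cells of the lines, whereas the vector controls were close. Its BPH-1 levels were 6.34, 5.93 and 6.16 CPM with the vector, 10.7, 9.96 and 10.0 CPM with C-Raf, and 29.3, 41.1 and 19.1 CPM in BONE R069, BONE R072 and THYMUS R075. All C-Raf parental libraries lay above all vector controls and below all metastasis-derived libraries. The C-Raf effect was 0.74 ± 0.08 (adjusted p = 7.34e-09) and the metastasis effect 1.62 ± 0.32, a 3.07-fold rise (adjusted p = 0.0104). In RWPE-1 the single vector control had 5.32 CPM and the 4 C-Raf parental libraries 1.14, 0.431, 0.140 and 0.229 CPM, the first of which shares the vector control's table. Metastasis-derived RWPE-1 lines ran from 0.397 to 5.15 CPM with a median of 1.13, and Bone4, the highest, lay just below the vector control. Neither RWPE-1 difference passed: -3.45 ± 1.13 for C-Raf (adjusted p = 0.174), or -2.22 within the vector control's table, and 1.69 ± 0.81 for metastasis (adjusted p = 0.643). Parental RWPE-1 values rest on 5 to 38 counts. SOX2 lies inside the same-strand transcript gene SOX2-OT, which had at most 13 counts in any library.

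SOX4 (chr6:21592768-21598619, plus strand), an HMG box factor widely expressed in epithelial progenitors, was the 1 member that fell with C-Raf in BPH-1. It went from 22.4, 20.7 and 23.1 CPM in the vector control to 17.1, 17.3 and 18.4 CPM in C-Raf parental cells, with no overlap, a change of -0.33 ± 0.06 (adjusted p = 1.65e-05). The metastasis-derived libraries were split, with 13.2 and 14.7 CPM in BONE R069 and BONE R072 below the parental range and 38.2 CPM in THYMUS R075 above it. Their difference from parental cells was 0.38 ± 0.42 (adjusted p = 0.498) and turned to -0.26 without THYMUS R075. In RWPE-1 SOX4 was at 31.8 CPM in the vector control, 45.4, 53.2, 69.5 and 64.4 CPM in C-Raf parental cells and 29.3 to 64.9 CPM (median 41.5) in metastasis-derived lines, and neither difference passed (adjusted p = 0.238 and 0.655).

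SOX9 (chr17:72121020-72126420, plus strand), a factor of prostate bud and ductal progenitors, rose slightly with C-Raf and varied widely between BPH-1 metastasis-derived libraries. It was at 71.7, 67.6 and 70.1 CPM in vector control and 83.2, 81.2 and 79.4 CPM in C-Raf parental BPH-1, without overlap, a rise of 0.22 ± 0.03 (adjusted p = 1.78e-06). BONE R069 had 32.9 CPM, BONE R072 76.8 CPM and THYMUS R075 404 CPM, on either side of the parental range and 12.3-fold apart. Their difference from parental cells, 1.12 ± 0.84, did not pass (adjusted p = 0.325) and was -0.49 without THYMUS R075. In RWPE-1, C-Raf parental libraries lay close together at 40.0, 44.1, 43.8 and 44.6 CPM beside 36.0 CPM in the vector control, and the metastasis-derived lines ran from 13.6 CPM in Bone4 to 59.4 CPM in Spine2 with a median of 35.0. Neither RWPE-1 difference passed (adjusted p = 0.798 and 0.891).

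KLF4 (chr9:107484852-107490482, minus strand), a factor of epithelial differentiation and one of the reprogramming factors, had the larger rise of the pair of KLF genes in metastasis-derived BPH-1 cells. Its levels were 17.2, 18.4 and 16.5 CPM in the vector control, 23.3, 20.4 and 21.1 CPM with C-Raf, and 46.7, 147 and 176 CPM in BONE R069, BONE R072 and THYMUS R075. No group overlapped the next. The C-Raf effect was 0.32 ± 0.06 (adjusted p = 2.75e-05) and the metastasis effect 2.58 ± 0.49, a 5.98-fold rise (adjusted p = 0.00952). RWPE-1 parental cells fell into 2 pairs, 9.65 and 10.5 CPM against 27.7 and 27.2 CPM, and the vector control had 15.5 CPM. The RWPE-1 metastasis-derived lines ran from 14.4 to 22.2 CPM apart from Bone4 at 59.1 CPM, with a median of 17.3. The RWPE-1 metastasis difference of 0.30 ± 0.45 did not pass (adjusted p = 0.909) and was -0.14 without Bone4.

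KLF5 (chr13:73054976-73077542, plus strand), a growth-promoting factor of basal epithelium, moved the same way in BPH-1. It was at 127, 126 and 128 CPM in vector control cells, 185, 193 and 181 CPM in C-Raf parental cells and 363, 456 and 932 CPM in BONE R069, BONE R072 and THYMUS R075, again without overlap. The C-Raf effect was 0.56 ± 0.03 (adjusted p = 1.15e-15) and the metastasis effect 1.70 ± 0.37, a 3.26-fold rise (adjusted p = 0.0145). In RWPE-1 it was at 272 CPM in the vector control and 313, 327, 343 and 333 CPM in C-Raf parental cells. The RWPE-1 metastasis-derived lines ran from 271 to 512 CPM with a median of 318 and Bone4 highest, and their difference from parental cells was 0.07 ± 0.15 (adjusted p = 0.940).

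CD44 (chr11:35138870-35232402, plus strand) rose with C-Raf in BPH-1. It was at 1243, 1298 and 1220 CPM in the vector control, 1699, 1658 and 1716 CPM in C-Raf parental cells and 1437, 3792 and 2843 CPM in BONE R069, BONE R072 and THYMUS R075. Vector and parental libraries did not overlap, while the metastasis-derived libraries lay on both sides of the parental range. The C-Raf effect was 0.44 ± 0.03 (adjusted p = 6.59e-14), and the metastasis difference of 0.74 ± 0.39 did not pass (adjusted p = 0.171). In RWPE-1 CD44 was at 671 CPM in the vector control, 747, 828, 823 and 804 CPM in C-Raf parental cells and 533 to 856 CPM (median 661) in metastasis-derived lines, of which 5 of 7 lay below the parental range. That difference was -0.25 ± 0.12 (adjusted p = 0.649).

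PSCA (chr8:142670308-142682724, plus strand) was near the lower limit of detection before metastasis and had the largest fold change of the set in BPH-1. Its BPH-1 levels were 0.277, 0.199 and 0.521 CPM in the vector control (6 to 18 counts), 0.468, 0.434 and 0.624 CPM in C-Raf parental cells (13 to 17 counts), and 0.775, 15.1 and 10.2 CPM in BONE R069, BONE R072 and THYMUS R075 (22, 184 and 268 counts). Vector and parental libraries overlapped, and BONE R069 lay just above the parental libraries whereas the other two were far above them. The C-Raf difference of 0.59 ± 0.37 did not pass (adjusted p = 0.176), although it did without vector control replicate 3 (1.06, adjusted p = 0.0383), and the metastasis effect was 4.16 ± 1.04, a 17.8-fold rise (adjusted p = 0.0227). In RWPE-1 the vector control had 2.57 CPM, C-Raf parental cells 1.53, 0.458, 0.225 and 0.229 CPM and metastasis-derived lines 0.183 to 1.54 CPM (median 0.487). Neither RWPE-1 difference passed (adjusted p = 0.307 and 0.944). JRK, on the opposite strand, overlaps PSCA and had up to 3882 counts, and whether strand was used in counting is not given in the sources used here.

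PROM1 (chr4:15963076-16084378, minus strand) was below the filter on low counts in all comparisons. It had 6, 5 and 5 counts in BPH-1 vector control and 2, 5 and 3 counts in C-Raf parental libraries, 1 count in BONE R069, and 0 in BONE R072 and THYMUS R075. In RWPE-1 it had 1 count in C-Raf parental replicate 1, 1 count in LN1A and 0 in the other 10 libraries. At 3 counts or fewer per library in RWPE-1 and metastasis-derived BPH-1 cells, a change was not detectable at this depth, and no fold is given.

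**Figure D2:**
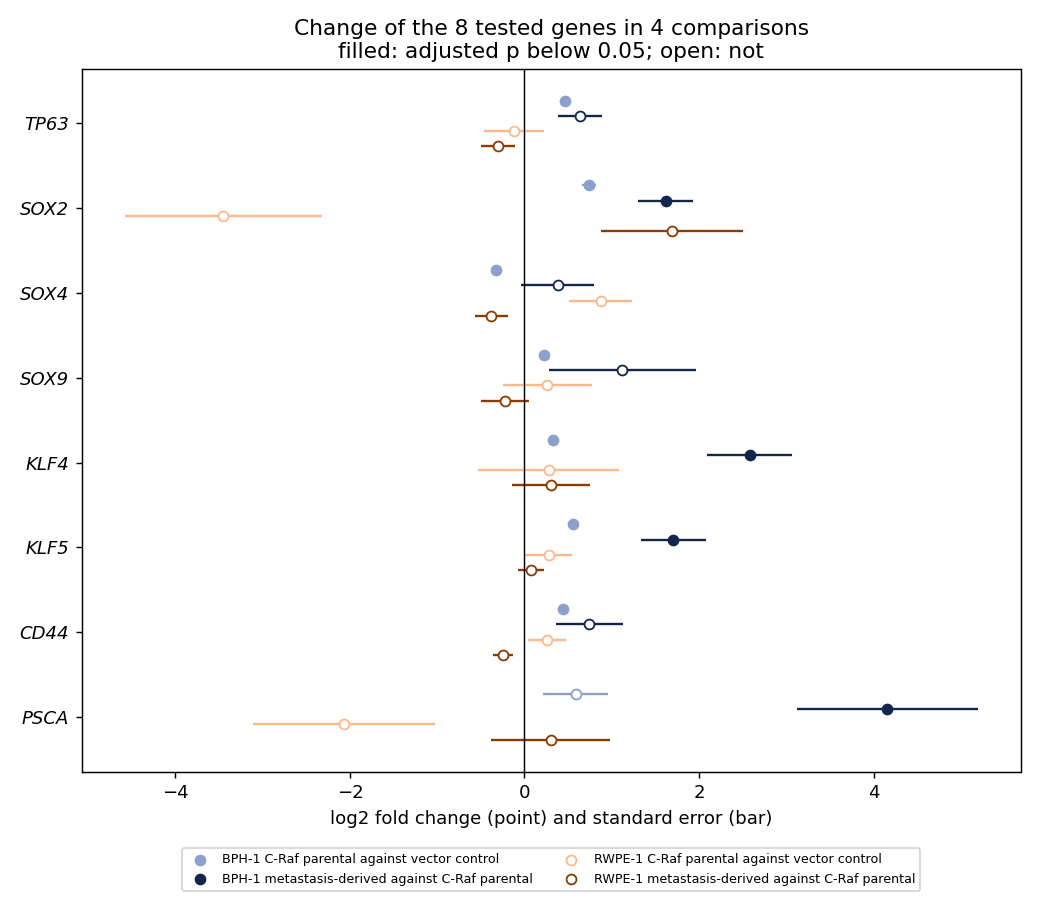
Log2 fold change (points) and SE (bars) of the 8 tested genes in the 4 comparisons within a line, filled where the adjusted p was below 0.05. The BPH-1 points are filled for 7 genes with C-Raf and for SOX2, KLF4, KLF5 and PSCA with metastasis, and all RWPE-1 points are open.

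The C-Raf comparison in BPH-1 asks what ectopic C-Raf does before any passage through a mouse. Of the 8 genes tested, 6 rose and SOX4 fell, with shifts of 0.22 to 0.74 in size, beside 59.8% of the 13246 genes tested that were called (30.4% higher and 29.4% lower). The median of the members was 0.45 and that of all genes -0.0019. Vector and parental ranges did not overlap for 7 of 8 members, against 63.1% of all genes. Replicates lay close together, with SDs for TP63 of 1.71 CPM in vector control and 3.61 CPM in C-Raf parental cells (n = 3 each).

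The metastasis comparison in BPH-1 asks what differs between tumor-derived lines and the cells injected. SOX2, KLF4, KLF5 and PSCA rose, 4 of 8 tested, beside 21.0% of 13467 genes that rose, 16.8% that fell and 37.7% called in either direction. The 8 members had a median of 1.37 and all genes 0.07. Ranges did not overlap for 5 of 8 members (TP63 was the fifth), against 59.7% of all genes. The calls depended on which libraries entered. Without any 1 of the 3 parental libraries 0 or 1 of the 8 was called, beside 1960 to 2095 of 13898 to 13912 genes tested. The calls lost had adjusted p of 0.0506 to 0.0864 and log2 fold changes of 1.57 to 4.30. Without any 1 of the 3 metastasis-derived libraries the 4 genes stayed called. Without BONE R069 TP63 (0.85, adjusted p = 0.0195) and CD44 (1.05, adjusted p = 0.0322) were called too, beside 3992 of 13574 genes. All genes called numbered 8326 of 13741 without BONE R072 and 6905 of 13747 without THYMUS R075. DESeq2 called 5 members, the added one being TP63 (0.66, adjusted p = 0.0397), beside 6322 of 13467 genes. With no scaling factor, where all genes had a median of -0.30 and 1627 rose against 2413 that fell (2822 and 2260 with TMM), 3 were called and KLF5 was at 1.36 (adjusted p = 0.0628).

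**Figure D3:**
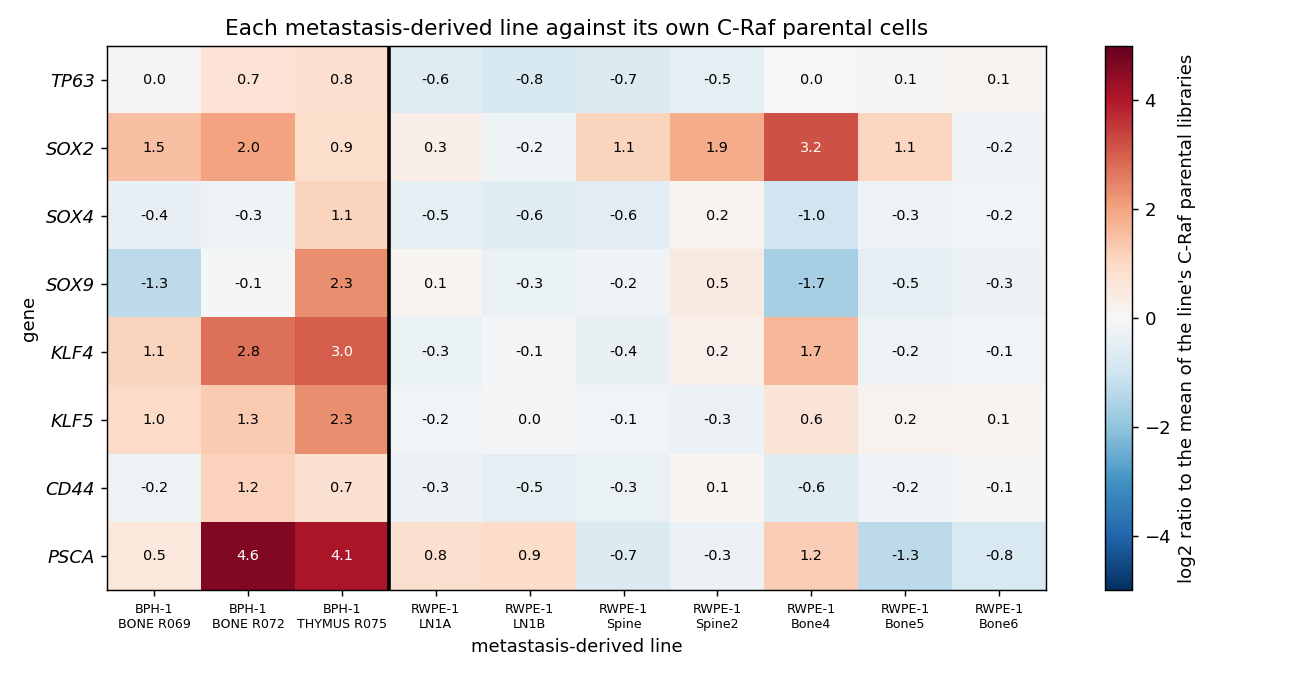
Log2 ratio of each gene in each metastasis-derived line to the mean CPM of its line's C-Raf parental libraries (0.1 CPM added to both), 3 BPH-1 libraries left of the black line and 7 RWPE-1 lines right of it. THYMUS R075 is above its parental mean for all 8 genes, and Bone4 is above for SOX2, KLF4, KLF5 and PSCA and lowest for SOX9.

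The tumor-derived lines were not alike among themselves. THYMUS R075 lay above the parental mean for 8 of 8 genes, BONE R072 for 6 and BONE R069 for 5. Among RWPE-1 lines the number ran from 1 in LN1B and Spine to 5 in Spine2, and in Bone4 it was 4 (SOX2, KLF4, KLF5 and PSCA), with log2 ratios from -1.66 for SOX9 to 3.17 for SOX2.

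In RWPE-1 no member was called in either step. C-Raf parental cells against the lone vector control gave 0 of 8 members beside 0.396% of 13899 genes called. At an unadjusted p below 0.05, 2 members passed (SOX2 lower and SOX4 higher) and 18.0% of all genes, and DESeq2 called 0 members. The lone control is assumed to vary like the other RWPE-1 libraries. Leaving out C-Raf parental replicate 1 gave SOX2 -4.29 with an adjusted p of 0.0412, the 1 member called there, beside 1447 of 13918 genes. That replicate is the only parental library in the vector control's table. Without it, C-Raf and deposited table cannot be told apart. Metastasis-derived against parental RWPE-1 gave 0 of 8 beside 0.0985% of 13194 genes, 0 of 8 at an unadjusted p below 0.05 (7.87% of genes), 0 with DESeq2, and 0 of 8 ranges that did not overlap (1.68% of genes). With the deposited table as a term, or within the table that holds 3 parental libraries, 0 members were called and SOX2 was at 1.60 and 3.01.

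The metastasis effects of the lines were compared by an interaction term. The effect was larger in BPH-1 for PSCA (by 3.80 ± 1.21, adjusted p = 0.0179), KLF4 (2.23 ± 0.72, 0.0188), KLF5 (1.59 ± 0.35, 0.00153), CD44 (0.94 ± 0.32, 0.0264) and TP63 (0.89 ± 0.33, 0.0355), 5 of 8 members beside 44.5% of 14285 genes called, 23.5% with the larger effect in BPH-1 and 21.0% with the larger in RWPE-1. It was not shown to differ for SOX2 (-0.13 ± 0.97, adjusted p = 0.933), SOX4 (0.72 ± 0.42, 0.174) or SOX9 (1.31 ± 0.77, 0.175). With no scaling factor KLF5 and PSCA stayed called, and KLF4 was at 1.86 (adjusted p = 0.0527), CD44 at 0.52 (0.126) and TP63 at 0.54 (0.226). Without BONE R072 CD44 was at 0.60 (0.0829) and TP63 at 0.80 (0.0662), and without any 1 BPH-1 C-Raf parental library neither was called (adjusted p = 0.0533 to 0.0768). TP63 was called in 3 of 11 fits that left out 1 library, and was also lost without THYMUS R075 (0.75, adjusted p = 0.0773) and without RWPE-1 C-Raf parental replicate 2, 3 or 4 (0.0731, 0.0547 and 0.0508). With all symbols TP63 (0.76, 0.0731) and CD44 (0.80, 0.0557) were not called. With the low-depth libraries PSCA alone was called (4.99, 0.00883), beside 4187 of 14383 genes, and KLF4 was at 1.89 (0.0515) and KLF5 at 1.19 (0.0824). Without RWPE-1 C-Raf parental replicate 1 PSCA was at 2.83 (0.0617), and without BONE R069 SOX9 was called at 1.81 (0.0290).

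Before metastasis, C-Raf parental RWPE-1 cells differed from C-Raf parental BPH-1 cells in 6 of 8 members, beside 73.9% of 13546 genes (38.0% higher and 36.0% lower in RWPE-1), and the library ranges of these 6 did not overlap, against 76.4% of all genes. SOX4 (1.73 ± 0.15), KLF5 (0.82 ± 0.06) and TP63 (0.36 ± 0.13) were higher in RWPE-1, and SOX2 (-4.40 ± 0.54), CD44 (-1.08 ± 0.08) and SOX9 (-0.91 ± 0.06) were lower, with adjusted p from 5.15e-06 to 0.0342. KLF4 (-0.20 ± 0.40) and PSCA (0.25 ± 0.71) did not pass. The lines also differ in medium and deposited table, which cannot be told apart from the line. The TP63 call was lost without any 1 library other than RWPE-1 C-Raf parental replicate 1, at 0.25 to 0.37 (adjusted p = 0.0545 to 0.110).

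Ordering the 6 groups by mean CPM, metastasis-derived BPH-1 cells came first for TP63, SOX2, SOX9, KLF4, KLF5, CD44 and PSCA. Of these, the range of libraries was separate from that of the next group for SOX2 alone (29.8 ± 11.0 against 10.2 ± 0.390 CPM, mean ± SD, n = 3 each). The share of all genes with such a separate first group was not computed. SOX4 was highest in C-Raf parental RWPE-1 (58.1 ± 10.9 CPM, n = 4), overlapping the metastasis-derived lines (44.7 ± 11.6 CPM, n = 7). PROM1 was highest in BPH-1 vector control (0.159 ± 0.0122 CPM, n = 3), overlapping C-Raf parental BPH-1 (0.115 ± 0.0503 CPM, n = 3).

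Fits over both lines with the line as a term called 0 of 8 members. C-Raf against vector control gave 0 beside 0.813% of 15255 genes, with 1 member at an unadjusted p below 0.05 (9.42% of genes). Metastasis-derived against C-Raf parental gave 0 beside 2.53%, with 4 at an unadjusted p below 0.05 (27.3% of genes), namely SOX2 (1.48 ± 0.62), KLF4 (1.11 ± 0.43), KLF5 (0.65 ± 0.26) and PSCA (1.91 ± 0.91). DESeq2, with or without ComBat-seq adjustment of the line, also called 0 members in both.

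The 3 libraries of low depth gave few counts for the members, and their CPM are unscaled with exact 95% Poisson intervals that cover counting error only. SOX4 had 48 counts in BONE R071 (103 CPM, interval 76.1 to 137) and 14 in BONE R075 (126 CPM, 68.8 to 211). Both lay above the deep metastasis-derived libraries, which were at 8.70 to 36.2 CPM unscaled. BONE R074, with 3 counts (22.6 CPM, 4.67 to 66.2), lay within the range of the deep libraries. PSCA had 14 counts in BONE R071 (30.1 CPM, 16.5 to 50.5), 7 in BONE R074 (52.8 CPM, 21.2 to 109) and 0 in BONE R075 (interval 0 to 33.2 CPM). KLF4 had 5, 8 and 1 counts (10.8, 60.4 and 8.99 CPM). BONE R074 alone (26.1 to 119) lay above the unscaled C-Raf parental range of 21.7 to 24.5 CPM, which the other intervals included. KLF5 had 88, 27 and 7 counts. BONE R071 (189 CPM, 152 to 233) and BONE R074 (204 CPM, 134 to 297) overlapped the parental 193 to 205 CPM. BONE R075 (25.3 to 130) lay below it. The unscaled KLF5 rise of the deep libraries (270 to 883 CPM) was thus not seen in these 3. CD44 had 68, 54 and 23 counts (146 to 408 CPM, below all other BPH-1 libraries) and TP63 9, 2 and 3 counts. With the 3 low-depth libraries in the fit, PSCA was at 5.17 (adjusted p = 0.00584) and was the 1 member called, beside 2102 of 13543 genes.

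**Figure D4:**
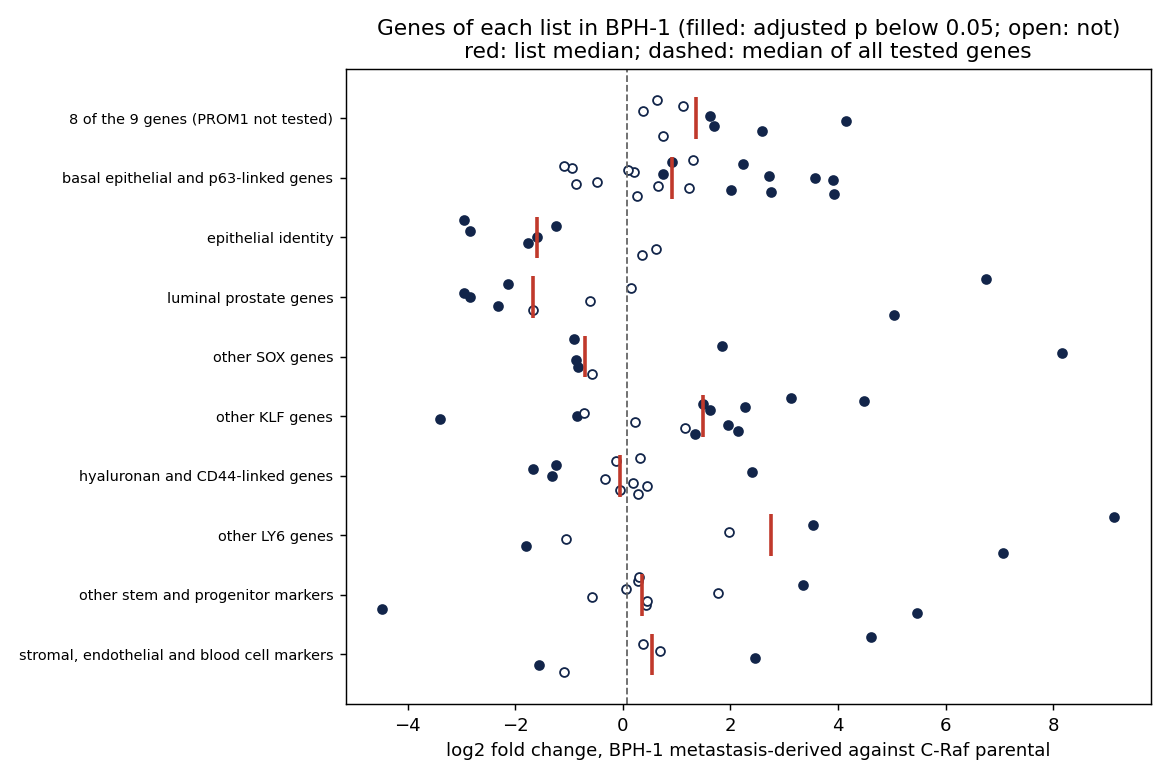
Log2 fold change in metastasis-derived against C-Raf parental BPH-1 cells of the genes tested in each list (points, filled where the adjusted p was below 0.05), with list medians in red and the median of all tested genes (0.07) dashed. The medians of the basal, KLF and LY6 lists lie right of the dashed line, and those of the epithelial identity, luminal and SOX lists left of it.

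Related genes from 9 lists place the members beside their families. In metastasis-derived BPH-1 cells, 9 of 19 basal and p63-linked genes rose and 0 fell (median 0.92), beside 21.0% of all genes that rose and 16.8% that fell, the shares against which the counts of the other lists in this comparison also stand. Among them were the desmosomal cadherin gene DSG3 at 3.92 ± 0.20, KRT14 at 3.91 ± 0.38 and KRT15 at 3.58 ± 0.87. Without BONE R072 12 rose and 3 fell, and with no scaling factor 7 rose and 2 fell. Of 7 epithelial identity genes, 5 fell, led by the simple keratin genes KRT8 (-2.96 ± 0.37) and KRT18 (-2.84 ± 0.28), which the luminal list shares. Of 9 luminal genes tested 4 fell and 2 rose, the latter being the secretory protease gene TMPRSS2 (0.138 to 14.5 CPM in group means) and the acid phosphatase gene ACPP (0.306 to 9.78 CPM).

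Other KLF genes rose in 8 of 13 cases and fell in 2 (median 1.48), with KLF8 at 4.49 ± 0.77, KLF9 at 3.13 ± 0.61 and KLF6 at 2.27 ± 0.69. With no scaling factor 5 rose and 2 fell. In group means KLF8 went from 0.284 to 6.20 CPM, KLF9 from 0.363 to 3.09 CPM and KLF6 from 45.6 to 213 CPM. Other SOX genes went both ways, 2 up and 3 down of 6 (1 and 3 with no scaling factor), and SOX7, SOX15 and SOX13 fell by 0.90, 0.86 and 0.83 on the log2 scale. Of 6 LY6 genes 3 rose and 1 fell, and LY6D, a basal and squamous marker, went from 0.769 to 97.9 CPM in group means. Among hyaluronan and CD44-linked genes 1 of 11 rose and 3 fell, the hyaluronidase genes HYAL1 (2.41 ± 0.49) and HYAL2 (-1.67 ± 0.32) moving apart. HYAL1 went from 0.477 to 2.45 CPM and HYAL2 from 27.7 to 8.32 CPM in group means. Of 10 other stem and progenitor markers 2 rose and 1 fell, ALDH1A1 at 5.47 ± 0.65 and the retinaldehyde dehydrogenase gene ALDH1A3 at -4.47 ± 0.45. ALDH1A1 started near the lower limit of detection, from 0.146 to 6.47 CPM in group means, and ALDH1A3 went from 755 to 32.9 CPM.

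With C-Raf in BPH-1, the same lists gave 11 basal genes up and 6 down of 19 (median 0.15), beside 30.4% of all genes up and 29.4% down, with the laminin chain gene LAMA3 at 1.58 ± 0.03, and the hyaluronan synthase gene HAS2 at 3.80 ± 0.05, from 5.19 to 72.3 CPM. Other KLF genes went 4 up and 5 down of 13, other SOX genes 3 up and 1 down of 4, stem markers 3 up and 5 down of 11, hyaluronan genes 3 up and 2 down of 11, LY6 genes 1 up and 4 down of 5, luminal genes 2 up and 6 down of 9 and epithelial identity genes 2 up and 3 down of 7. In both RWPE-1 comparisons within the line, 0 genes of all 9 lists were called, beside 0.396% of all genes with C-Raf and 0.0985% with metastasis.

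Markers of stromal, endothelial and blood cells moved beside the BPH-1 metastasis result. Over the 15 listed, their summed level was 77.6 to 119 CPM in metastasis-derived and 40.0 to 43.3 CPM in C-Raf parental libraries, and 2 of 6 tested rose and 1 fell. COL1A1 went from 11.2 to 11.4 CPM up to 49.9 to 70.4 CPM and VWF from 0.702 to 0.807 CPM up to 2.17 to 40.0 CPM, whereas the endothelial cadherin gene CDH5 was the 1 that fell (-1.56 ± 0.35, adjusted p = 0.0161) and the macrophage gene CD68 was at -1.09 ± 0.49 (adjusted p = 0.122). CDH5 and CD68 were named after their values were seen. The leukocyte marker PTPRC and the fibroblast marker DCN did not exceed 0.0381 CPM there, and PECAM1 did not exceed 0.410 CPM. In RWPE-1 the summed level was 43.1 CPM in the vector control, 67.7 to 162 CPM in parental and 92.9 to 175 CPM in metastasis-derived libraries, where DCN reached 7.36 CPM against 0.590 CPM in parental cells. CD68 alone was at 58.4 to 140 CPM in RWPE-1 and 25.8 to 28.9 CPM in BPH-1 C-Raf parental libraries. A large part of the parental sums is thus this 1 gene. The part of other cells, mouse cells included, in the members' levels was not tested.

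The genes with profiles most like each member were found by the root mean square difference of centred log2 levels over the 21 libraries, among 12630 genes. This is a description over libraries that share lines and tables. For CD44 they were SLC2A1 (0.188) and DNAJB6 (0.250), for SOX4 they were NFKB1 (0.242) and TBC1D9 (0.251), for KLF5 they were JMJD1C (0.246) and KLF7 (0.276), and for TP63 they were TCF7L2 (0.274) and FAM63B (0.280). For KLF4 they were PPP1R15A (0.321) and GAREM (0.408), and for SOX9 they were TMCC3 (0.392) and TBX3 (0.444). PSCA was nearest to HPGD (0.846) and KRT15 (0.878) and SOX2 to TMEM63C (0.881) and GRIN2C (0.947), which are larger differences than for the other 6. SOX2 and PSCA also varied most themselves, with a root mean square of centred log2 levels of 2.17 and 1.53. The other 6 ran from 0.406 for TP63 to 1.06 for KLF4. The differences therefore do not rank the members by closeness of match.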

How the data were processed

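The 24 libraries were made from total RNA with an Illumina mRNA kit. The authors processed reads with the TOIL pipeline, and the submitters' processing notes name cutadapt, FastQC, STAR, RSEM and hg38. They deposited 4 tables of RSEM expected counts (estimated counts per gene, 60448 symbols), which are not normalized. Strandedness is not given in the sources used here. Expected counts were rounded to whole numbers, after which protein-coding symbols were kept (GENCODE 29, with 951 matched through older RefSeq symbols).

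Groups came from the labels. Genes were filtered with filterByExpr, scaled by TMM and tested with edgeR 4.0.16 (glmQLFit and glmQLFTest, R 4.3.3) in each comparison, with Benjamini-Hochberg adjustment and a threshold of 0.05. DESeq2 1.42.0, RLE factors, no filter, all symbols, a replicate or table term, ComBat-seq (sva 3.50.0), the low-depth libraries and leaving out single libraries were alternatives. The scripts were tested on simulated data. Shared replicate numbers existed only between the first 2 BPH-1 groups.

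The members and lists were chosen with earlier results of these data known. Beyond the 9 members, the text names for each list up to 3 called genes, those of largest change whose mean over all libraries of that fit reached 1 CPM. For each member it also names the 2 genes with the most similar profile. KRT5, EPCAM, KLK3, PTPRC, DCN and PECAM1 are named as markers. The gene overexpressed in the study and some genes that these rules name are not reported here. CPM carry counting error set by 20576111 to 42031834 protein-coding counts in the 21 libraries and by 111181 to 464967 in the 3 of low depth. With the low-depth libraries left out, no pair of libraries of a group agreed within counting noise. Squared differences between 2 libraries, relative to counting noise, averaged 1.68 to 4.56 in BPH-1 vector control and 2.04 to 2.14 in BPH-1 C-Raf parental pairs. In pairs of the RWPE-1 and the BPH-1 metastasis-derived groups they averaged 17.6 to 799. The adjusted p-values of the BPH-1 C-Raf comparison rest on the small spread of its libraries.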

Additional observations from a re-analysis of the deposited data

Results flagged for a closer look

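Within groups of 4 to 10 libraries, 8 of 27 sets of values had 1 library far from the rest by Dixon's test at the 95% level. That level assumes normally distributed values, and the sets share libraries, so the number flagged cannot be set against a chance rate. In RWPE-1 metastasis-derived lines, Bone4 stood apart for SOX2 (5.15 CPM, next highest 2.04), KLF4 (59.1 CPM) and KLF5 (512 CPM). In BPH-1 metastasis-derived libraries, with all 6 (those of low depth included) on the unscaled CPM scale, THYMUS R075 stood apart for SOX9 (382 CPM) and KLF5 (883 CPM). PROM1 stood out where 1 library had a single count and the others 0: BONE R069 (0.0355 CPM unscaled), RWPE-1 C-Raf parental replicate 1 (0.0300 CPM) and LN1A (0.0244 CPM). Such a pattern is always flagged.

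The metastasis effect differed between the lines by the interaction test in edgeR for 5 genes, by 0.89 for TP63, 2.23 for KLF4, 1.59 for KLF5, 0.94 for CD44 and 3.80 for PSCA on the log2 scale, each larger in BPH-1. Of these, 3 were called with all symbols (8160 of 18521 genes), 2 with no scaling factor (5739 of 14285) and 1 with the low-depth libraries (4187 of 14383). TP63 was called in 3 of 11 fits that left out 1 library.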

How the results depend on the processing

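Across comparisons, 37 of the alternative counts of called genes moved by over 1.5 times and the other 81 did not, and of the values of single genes 863 kept direction and call, 43 lost and 6 gained a call and 32 changed sign. The cause was not tested. BPH-1 metastasis-derived libraries number 3, and 1 RWPE-1 vector control limits that contrast. The fits with no scaling factor, those without single RWPE-1 metastasis-derived lines and that without the lone vector control were chosen after seeing the data.

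Leaving out single libraries gave 1960 to 8326 called genes in the BPH-1 metastasis comparison, 18 to 1447 for C-Raf and 4 to 40 for metastasis in RWPE-1, and 38 to 286 and 98 to 489 in the fits over both lines. DESeq2 called 777 and 176 genes in the RWPE-1 comparisons and 457 and 952 over both lines. ComBat-seq and DESeq2 called 150 and 482 over both lines. All symbols gave 20 for RWPE-1 metastasis and 1781 for metastasis over both lines, and fits within 1 deposited table gave 111 genes for C-Raf (that of the vector control) and 2 for metastasis (that of 3 parental libraries) in RWPE-1. With the 3 low-depth libraries 2102 genes were called in the BPH-1 metastasis comparison, 4187 for the difference between lines and 37 for C-Raf over both lines.

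Signs turned as follows on the log2 scale. With the low-depth libraries, the BPH-1 metastasis difference was -0.30 for TP63 and -0.24 for CD44, and that over both lines was -0.22 for TP63, 0.43 for SOX4 and -0.18 for CD44. KLF4 with C-Raf in RWPE-1 was -0.68 in the vector control's table. Over both lines, metastasis gave TP63 -0.059 with all symbols, and -0.13 for TP63 and -0.087 for CD44 with no scaling factor. Without single libraries, BPH-1 metastasis ranged from -0.26 to 0.65 for SOX4 and -0.49 to 1.61 for SOX9, RWPE-1 metastasis from -0.14 to 0.55 for KLF4 and -0.050 to 0.12 for KLF5, and RWPE-1 against BPH-1 from -0.44 to 0.010 for KLF4 and -0.72 to 0.53 for PSCA. The difference between lines ranged from -0.95 to 0.58 for SOX2 and -0.32 to 1.81 for SOX9. Over both lines, C-Raf ranged from -1.68 to 0.70 for SOX2, -0.078 to 0.22 for SOX4 and -1.55 to 2.40 for PSCA, and metastasis from -0.085 to 0.10 for TP63, -0.32 to 0.36 for SOX9 and -0.067 to 0.14 for CD44.

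Replicate numbers 1 to 3 of the BPH-1 libraries before metastasis gave correlations of deviations of 0.0105, -0.0954 and -0.0474, so they share only a number. With the replicate block 7687 genes and 7 of 8 members were called. For the other comparisons no paired analysis was possible because the labels share no such numbers between their groups.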
